A study of Rattus norvegicus with 8 samples.

Results

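Luteolin was compared with saline in chronically stressed rats through 4 of the 8 samples of the series. These are the prefrontal cortex (PFC) and hippocampus samples labelled CMS+luteolin and the PFC and hippocampus samples labelled CMS+saline. All rats were adult male Sprague-Dawley animals, an outbred stock, and CMS is the series' name for its chronic stress protocol. Luteolin was given by daily intraperitoneal injection at 10 mg/kg/day during the last 3 weeks of the protocol, and tissue was taken in week 7. The other 4 samples are unstressed controls given saline and stressed rats given methylglyoxal (MGO), a reactive dicarbonyl, with 1 sample of each tissue in either group. They enter only as reference levels and in the estimate of spread. The protocol counts 1 unstressed rat and 2 stressed rats, given saline or MGO, and mentions no luteolin rat, so how many rats the luteolin samples came from is not stated.

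Luteolin is a plant flavone, known for antioxidant and anti-inflammatory activity in cell and animal work. The PFC and the hippocampus both take part in mood, memory and the feedback control of stress hormones. Chronic stress protocols in rodents are used to bring about a loss of interest in rewards and other depression-like behaviour. The series sets luteolin beside MGO as a drug given under stress.

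Expression is given in FPKM (fragments per kilobase of a gene, scaled to the total mapped) and was analysed as log2(FPKM + 1) over the 12155 genes that averaged 1 FPKM or more in the 8 samples. The addition of 1 makes differences of low genes smaller than they are in FPKM. The table names genes by Ensembl ID only and none was matched to a symbol, so genes appear by ID, no more than 2 in each direction are named, and their functions are not given. For the same reason neither the labelled tissues nor the presence of other cell types was checked against marker genes. In bulk tissue, fewer cells of a type and less RNA per cell cannot be told apart. Relative sequencing depth, read from the steps between low values with the control PFC sample at 1, was 1.24 for luteolin and 0.855 for CMS+saline in PFC. In hippocampus it was 1.34 for luteolin and 1.03 for CMS+saline. The luteolin samples were thus the more deeply sequenced side in both tissues, and the part of depth in the results was not tested. The description code of the 2 CMS+saline samples is not that of the remaining 6 samples. Luteolin, rat and code cannot be told apart against CMS+saline, whereas the control shares its code with luteolin, so values against the control are set beside the main ones. The control was unstressed, so against it luteolin, stress and rat cannot be told apart.

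Most genes had similar levels with luteolin and with saline. In both tissues 10696 of the 12155 genes (88.0%) stayed within 2-fold. The middle 50% of the PFC differences, luteolin minus saline in log2(FPKM + 1), ran from -0.17 to 0.24 around a median of 0.04. In hippocampus they ran from -0.25 to 0.33 around a median of 0.05, a wider spread. The luteolin hippocampus sample also had the wider interquartile range against the control, 0.55, where CMS+saline against control in hippocampus gave 0.27. In PFC the range was 0.40 against CMS+saline and 0.25 against the control, so there the luteolin sample was nearer to the control than to CMS+saline.

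A difference of at least 2-fold was reached by 6.52% of genes in PFC and 7.52% in hippocampus. With 1 sample on each side these are levels of 2 samples with no replicate behind them and no p-value. Of the 1459 genes past 2-fold in either tissue, 1212 passed it in 1 tissue alone and 247 in both. A gene just under the limit in 1 tissue counts as past it in the other alone, so these counts do not show that the tissues differ. In PFC alone 233 were higher and 312 lower with luteolin, and in hippocampus alone 312 were higher and 355 lower.

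The genes past 2-fold the same way in both tissues leaned towards lower levels with luteolin, a lean that reversed at 1.2-fold, as given below. They comprised 60 higher genes (0.494% of the genes tested) and 99 lower genes (0.814%). At 4-fold in both tissues the counts were 15 higher and 26 lower, and at 8-fold 7 higher and 12 lower. In the luteolin samples the lower genes had medians of 3.49 FPKM in PFC and 5.57 FPKM in hippocampus, and the higher genes 10.9 and 9.71 FPKM. In the CMS+saline samples the medians were 27.7 and 22.2 FPKM for the lower genes and 1.96 and 1.73 FPKM for the higher genes, an order that the choice of the genes sets. With the control as reference, 124 genes (1.02%) passed 2-fold the same way in both tissues, 65 higher and 59 lower with luteolin, so the lean was not present with that reference.

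Among genes past a given fold in each tissue, the share that went the same way was highest at a low fold. At 1.2-fold or more in each tissue, luteolin and CMS+saline differed in 3149 genes, of which 2438 (77.4%) went the same way, 1307 higher and 1131 lower. The share was 71.6% at 1.5-fold, 64.4% at 2-fold and 55.4% at 4-fold, and 65.8% with no lower limit. Against the control it was 57.7% at 1.2-fold and 61.5% at 4-fold. These shares were computed after the data were seen, rest on 1 sample per tissue and treatment, and count genes, which are not independent. Depth also differed in the same direction in both tissues for luteolin against CMS+saline, as given above. The same held against the control, with relative depths of 1.24 for luteolin and 1 for the control in PFC. In hippocampus they were 1.34 and 1.17. The part of depth in either result was not tested.

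**Figure D1:**
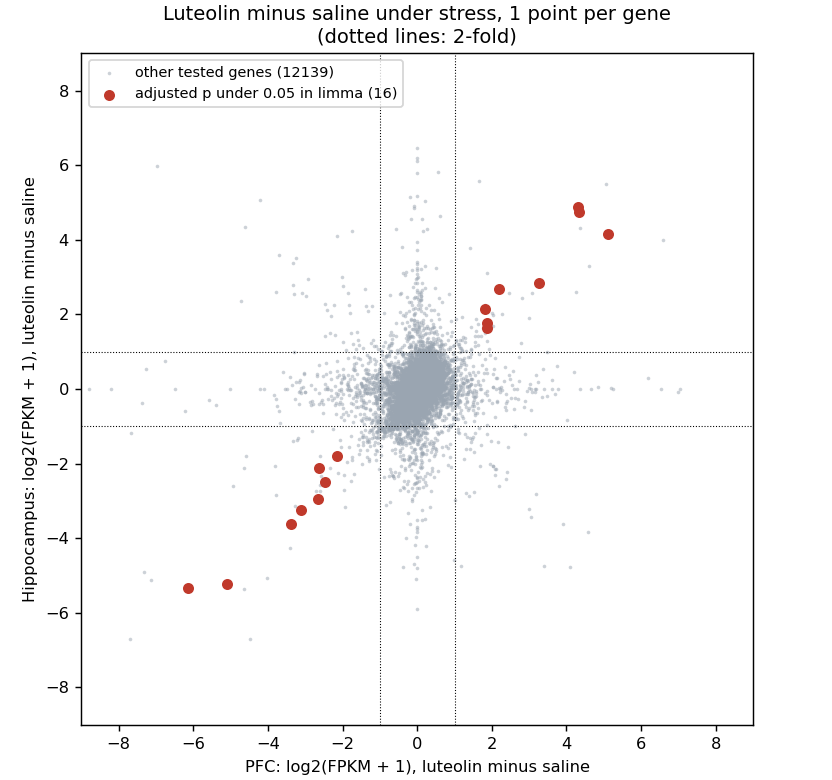
Difference in log2(FPKM + 1), luteolin minus saline under stress, in PFC (x axis) and hippocampus (y axis), 1 point per gene, with dotted lines at 2-fold and the 16 genes past the limma threshold in red. The red points lie past 2-fold in both tissues and near the rising diagonal, because the model selects genes with large differences that are alike in both tissues. Many other genes lie along an axis, with a large difference in 1 tissue alone.

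A linear model was then used to ask which differences were alike in the 2 tissues. It was fitted in limma to all 8 samples with tissue as a block, so the spread is how treatment differences vary between PFC and hippocampus. Its p-values therefore say nothing about how rats vary. After Benjamini-Hochberg adjustment 16 of 12155 genes (0.132%) passed 0.05, with 8 higher and 8 lower with luteolin. Before adjustment 1406 genes (11.6%) had a p under 0.05, and 594 (4.89%) in the fit without the tissue block. Of the 16 genes, 4 passed the filter on low values only through the luteolin samples and 2 only through the CMS+saline samples. Such genes had to differ, and their calls support nothing. The calls also changed with the samples in the fit. With only the 4 samples compared, limma called 0 genes (1255 with an unadjusted p under 0.05, lowest adjusted p = 0.324). Leaving out a single sample gave 1 gene without either control sample, 1 without either MGO sample, 3 without CMS+saline PFC, 6 without CMS+saline hippocampus, 12 without luteolin PFC and 25 without luteolin hippocampus. Of the 16 genes themselves, 1 was called in each fit that left out a control, MGO or CMS+saline sample, 6 were called without luteolin PFC and 7 without luteolin hippocampus. The calls are therefore described below by their levels.

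The 16 genes fell into 4 patterns by whether their control and MGO levels, averaged over both tissues, lay nearer to luteolin or to CMS+saline. The grouping was chosen after the levels were seen. In 7 genes both control and MGO lay nearer to CMS+saline, a pattern called luteolin alone below. Of these, 4 passed the filter on low values only through the luteolin samples. In 4 genes both lay nearer to luteolin, called CMS+saline alone, and 2 of them passed only through the CMS+saline samples. The filter fixed the pattern of such genes, so they are no evidence for it. MGO lay with luteolin and control with CMS+saline in 3 genes, and the reverse held in 2. Among all 159 genes past 2-fold the same way in both tissues, the pattern was luteolin alone in 34 (21.4%) and CMS+saline alone in 56 (35.2%). MGO alone sided with luteolin in 38 (23.9%) and control alone in 31 (19.5%). More of the 99 lower genes had CMS+saline alone (37) than luteolin alone (17), whereas the 60 higher genes divided nearly evenly, with 19 and 17. The difference between these divisions was not tested, and their shares over all tested genes were not counted. The 159 passed the same filter on low values and include the 4 and 2 called genes whose pattern it fixed. Further such genes among the 159 were not counted, so these shares are partly set by the filter. Nearest is also not outermost. Luteolin lay outside the range of the other 3 treatments in both tissues in 54 of the 159 genes (34.0%) and in 20.9% of all tested genes. For CMS+saline it was 76 (47.8%) and 19.3%. The 159 were chosen for a difference between luteolin and CMS+saline, so their shares are partly set by that choice.

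The 7 genes with luteolin alone included 3 that were listed at 0 in all 6 other samples and passed the filter only through the luteolin samples. One of these was at 33.5 FPKM in luteolin PFC and 16.9 FPKM in luteolin hippocampus. Another was at 18.9 FPKM and 28.2 FPKM, and the last at 8.60 FPKM and 6.14 FPKM. One gene showed the opposite: it was listed at 0 in both luteolin samples and stood between 33.3 and 42.5 FPKM in the other 6. It had the lowest p of the comparison (limma adjusted p = 0.00248). A value of exactly 0 in such a table can be a failed estimate, and no fold is given for these genes.

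The other 3 genes of this pattern were above 0 in all 8 samples. ENSRNOG00000017444 was at 49.7 FPKM in luteolin PFC and 14.0 FPKM in the luteolin hippocampus, and at 531 and 184 FPKM with CMS+saline. In the control it was at 346 and 164 FPKM, and with MGO at 385 and 164 FPKM. The luteolin sample was thus the lowest of its tissue in both cases, while PFC remained above hippocampus under each treatment. The fitted difference was -3.51 in log2(FPKM + 1) (SE 0.20, limma adjusted p = 0.0272), and against the control -3.12 (SE 0.20, limma adjusted p = 0.0132). ENSRNOG00000045695 was a low gene, with CMS+saline values of 0.344 FPKM in PFC and 0.528 FPKM in hippocampus. Control (0.340 and 0.567 FPKM) and MGO (0.312 and 0.517 FPKM) were close to these values, and luteolin stood apart at 3.72 and 5.72 FPKM. Its difference was 1.98 against CMS+saline and 1.96 against the control. It passed the filter only through the luteolin samples, so no test is given for it. The last of the 3 genes was at 22.8 and 23.7 FPKM with luteolin and between 5.56 and 6.39 FPKM in the other 6 samples.

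**Figure D2:**
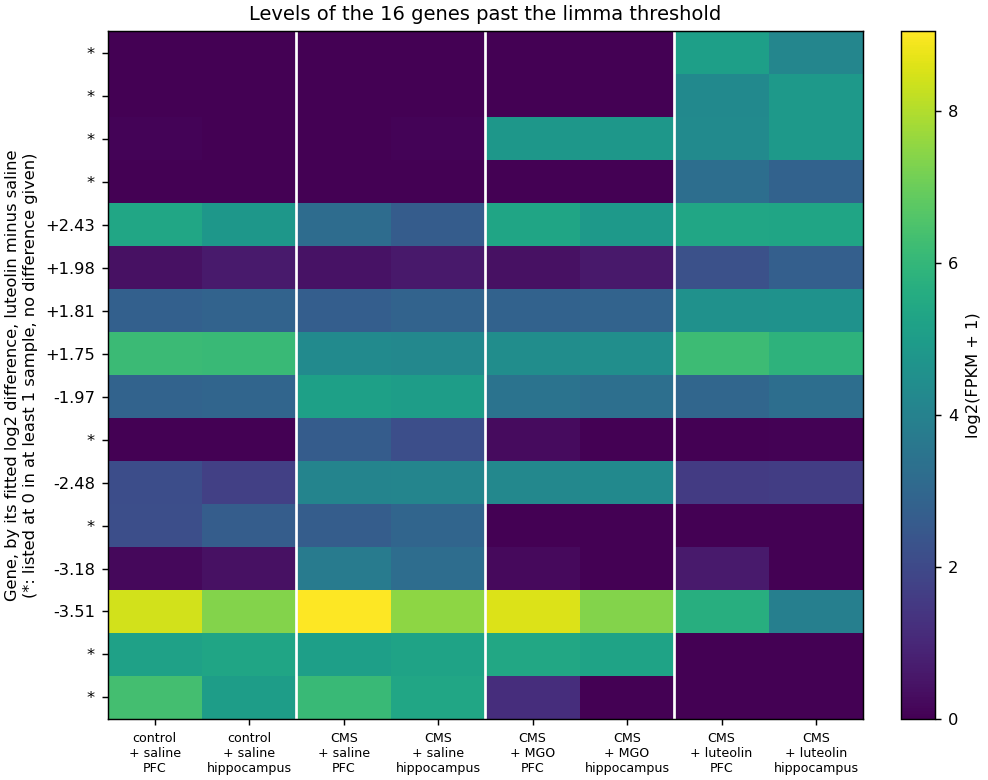
Level in log2(FPKM + 1) (colour) of the 16 genes past the limma threshold in each of the 8 samples (columns, 1 sample each), ordered by the fitted difference, luteolin minus saline, which is printed at the left except for the genes listed at 0 in at least 1 sample (asterisks). The 2 tissues of a treatment mostly share a colour, which the selection by the model partly sets. The columns that stand out are the luteolin pair in some rows and the CMS+saline pair in others.

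The 4 genes with CMS+saline alone had luteolin at about the level of control and MGO. ENSRNOG00000011927 had CMS+saline values of 8.09 FPKM in PFC and 5.24 FPKM in hippocampus. Its luteolin values were 40.3 and 38.9 FPKM, next to 39.6 and 27.1 FPKM in the control and 38.9 and 28.6 FPKM with MGO. The CMS+saline samples were the low ones in both tissues and did not overlap with the other 6. The difference was 2.43 (SE 0.16, limma adjusted p = 0.0309) against CMS+saline and 0.26 (SE 0.16, limma adjusted p = 0.743) against the control. ENSRNOG00000013379 ran the other way, at 12.6 and 8.50 FPKM with CMS+saline and at 0.566 and 0.0119 FPKM with luteolin. It was also low in the control, at 0.157 and 0.341 FPKM, and with MGO, at 0.177 and 0.00195 FPKM. Its difference was -3.18 against CMS+saline and 0.02 against the control. It passed the filter only through the CMS+saline samples, so no test is given for it. Without the filter 12 of the 16 genes were still called, and this gene was not among them. Of the other 2 genes, one was at 34.5 and 32.3 FPKM with CMS+saline and between 6.35 and 10.0 FPKM elsewhere. The other was at 5.18 and 3.57 FPKM with CMS+saline and at most 0.201 FPKM elsewhere, and passed the filter only through the CMS+saline samples.

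Under leave-one-out fits and the other settings run, the direction of the 4 named genes could hardly change. They were chosen for a large difference that was alike in both tissues. Leaving out a control or MGO sample does not alter the fitted difference, which stayed at 2.43 for ENSRNOG00000011927. All 4 kept their direction, which is therefore no separate support. The 2 that did not depend on the filter often lost their call: the limma adjusted p ran from 0.0261 to 0.884 for ENSRNOG00000017444, which passed in 5 of 15 settings, and from 0.0317 to 0.377 for ENSRNOG00000011927, which passed in 7 of 15.

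**Figure D3:**
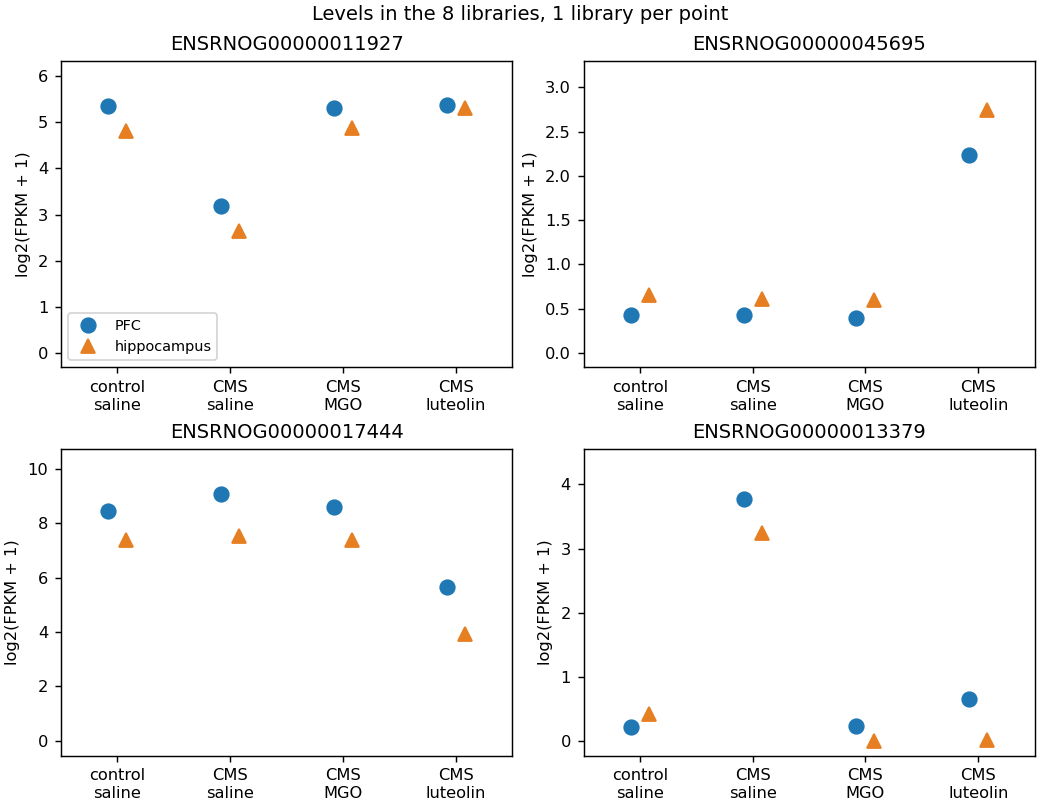
Level in log2(FPKM + 1) of the 4 named genes under the 4 treatments, with 1 point per sample, circles for PFC and triangles for hippocampus. Luteolin stands apart for ENSRNOG00000045695 and ENSRNOG00000017444, and CMS+saline for ENSRNOG00000011927 and ENSRNOG00000013379.

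In the remaining 5 called genes, luteolin shared its level with either MGO or the control. In 3 of them MGO sided with luteolin. One was at 19.4 and 28.0 FPKM with luteolin and at 27.0 and 26.7 FPKM with MGO, and was at most 0.0758 FPKM in the control and CMS+saline samples. In another, luteolin was listed at 0 in both tissues and MGO had 1.26 FPKM in PFC and a listed 0 in hippocampus, while control and CMS+saline lay between 32.3 and 79.8 FPKM. In the third, luteolin and MGO were listed at 0 in both tissues and the other 4 samples lay between 3.47 and 6.66 FPKM. In the last 2 genes the control sided with luteolin. One had 73.1 and 56.4 FPKM with luteolin, 72.0 and 69.2 FPKM in the control and between 17.6 and 21.4 FPKM in the CMS+saline and MGO samples. The other had 2.0 and 2.15 FPKM with luteolin, 3.42 and 2.27 FPKM in the control and between 15.8 and 18.4 FPKM in the others.

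Against the control, the same model called 26 genes (0.214%), 16 higher and 10 lower with luteolin. This comparison uses the same luteolin samples as the main one, so the counts are not separate evidence. It also sets luteolin under stress against saline without stress. Before adjustment 600 genes (4.94%) had a p under 0.05, about the share that this threshold passes where nothing differs. Against CMS+saline it was 1406 (11.6%). Without the tissue block the limma counts were 292 (2.40%) against the control and 594 (4.89%) against CMS+saline, so the share against CMS+saline depended on the block. Both shares also depended on the samples in the fit. Without luteolin PFC each was higher, and without luteolin hippocampus they lay close together. The shares therefore do not show that luteolin was like the control or that it differed more from CMS+saline. Without either control sample, limma called 0 genes (541 with an unadjusted p under 0.05 without control PFC and 496 without control hippocampus). It called 10 without either CMS+saline sample, 17 without luteolin PFC, 21 without MGO PFC, 20 without MGO hippocampus and 35 without luteolin hippocampus.

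Changes between very low and clear expression were counted as levels under 1 FPKM on one side and at 5 FPKM or more on the other, limits chosen after the data were seen. Of the 12155 genes tested, 69 were clear with CMS+saline and low with luteolin in PFC, and 54 were the reverse. In hippocampus the counts were 49 and 67. Only 11 genes were lost and 10 gained with luteolin in both tissues, while 8 of those lost in PFC were gained in hippocampus and 5 of those gained in PFC were lost there. Of the 10 genes gained in both, 3 were also low in both tissues of control and MGO. These 3 are the genes described above that were listed at 0 in all samples outside luteolin. They passed the filter on low values only through the luteolin samples, so the filter fixed their pattern and their count supports nothing. Of the 11 lost in both, 1 was at 5 FPKM or more in all control and MGO samples. Such counts were not made for the other pairs of treatments, so they are not shown to be particular to luteolin. At 2-fold, the pairs of treatments within a tissue differed in 5.66% to 8.11% of the genes.

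Abundant genes were lower in the luteolin hippocampus sample. Of the 572 genes with a mean of 100 FPKM or more, 72 were at least 2-fold lower and 12 higher with luteolin than with CMS+saline in hippocampus, and the median difference of the class was -0.32. The 11583 less abundant genes had 425 lower and 405 higher, with a median of 0.06. The class was also lower in that sample against the control (median -0.33) and against MGO (median -0.31), whereas CMS+saline and control hippocampus differed by a median of -0.005. Genes of this class held 42.9% of all FPKM in the luteolin hippocampus sample and between 48.6% and 49.4% in the other 3 hippocampus samples. The luteolin hippocampus sample thus stood apart from all 3 others of its tissue. This sample also had the highest relative depth of the 8 (1.34), and the part of depth in the difference was not tested. It had the lowest FPKM sum too (300281, with 335566 in CMS+saline hippocampus). The abundant genes are part of that sum, at 128763 FPKM with luteolin and 165183 FPKM with CMS+saline, so the sum is not a separate measure.

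In PFC the abundant genes were also lower with luteolin than with CMS+saline, but there CMS+saline was the sample that stood apart. Among the same 572 genes, 31 were at least 2-fold lower and 10 higher with luteolin, with a median difference of -0.15. Against the control the median was 0.03, with 13 lower and 12 higher. The class held 52.7% of all FPKM in CMS+saline PFC, 48.1% with luteolin, 48.5% in the control and 49.0% with MGO. The CMS+saline PFC sample had the lowest relative depth of the 8 (0.855), and the part of depth was likewise not tested. It had the highest FPKM sum (352740, with 315466 in luteolin PFC), which again includes the abundant genes, at 185972 FPKM with CMS+saline and 151888 FPKM with luteolin. The abundant class was defined after the data were seen.

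**Figure D4:**
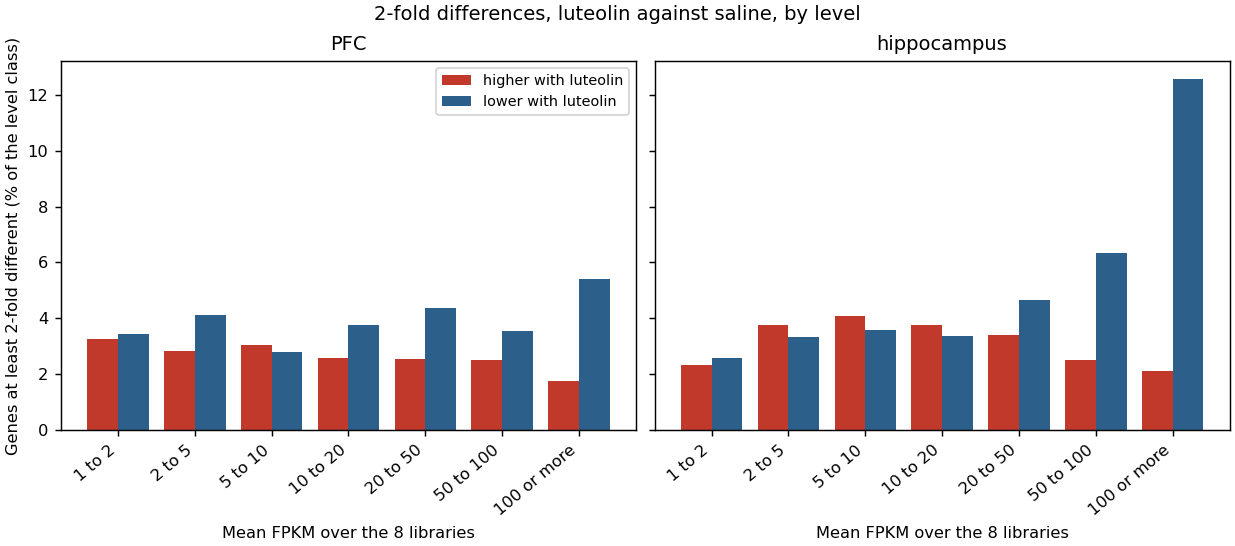
Share of genes (y axis, % of the level class) at least 2-fold higher (red) or lower (blue) with luteolin than with saline under stress, by mean FPKM over the 8 samples (x axis), for PFC and hippocampus. Bars for lower genes rise at 100 FPKM or more, where 72 of 572 genes are lower in hippocampus and 31 of 572 in PFC.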

How the data were processed

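The authors deposited 1 table with 31185 Ensembl IDs and 1 value for each gene in each library, treated as FPKM. Neither header nor labels state the unit; it was inferred from the values and from the named tools. Per the submitters' processing notes, these are FastQC 0.11.5, HISAT2 2.0.4 and StringTie 1.2.4 with Rnor_6.0 (rn6); annotation, filters and settings: not given in the sources used here. Absolute depth is unknown; relative depth came from ratios of values below 0.2 FPKM.

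Samples were grouped by title. Genes averaging 1 FPKM or more were compared as log2(FPKM + 1) by limma 3.58.1 under R 4.3.3 (mean-variance trend, two-sided tests, tissue as a block, 4 treatments, 3 residual degrees of freedom). The model was also run on simulated data with normal noise of limited spread, so that run does not cover genes with large swings between samples. Counting used Python 3.11.15 with pandas 2.3.3. Labels give no replicate numbers and do not say that samples are separate animals, so p-values measure only the spread between these samples.

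The naming rule took called genes above 0 in all 8 libraries with the largest rise and fall, then genes listed at 0; with 0 IDs matched to 47357 genes of the symbol table, it was limited to 2 IDs per direction, which the first ranking filled. The 37 gene lists, the marker genes and the 12 fixed genes were not evaluated. Comparison, lists and tests were chosen with earlier results of these data known. Alternatives were pseudocount, filter, scaling, samples in the fit, block, trend, fold threshold, reference and leaving out each library.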

Additional observations from a re-analysis of the deposited data

Results flagged for a closer look

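In 88 genes the 2-fold difference between luteolin and saline under stress had opposite signs in the 2 tissues, 43 higher in PFC and lower in hippocampus with luteolin and 45 the reverse. With 1 sample per tissue and treatment, this difference between the tissues was not tested. In 33 of the 88 both differences were at least 4-fold. Of the 88 genes, 19 were listed at 0 in at least 1 of the 8 samples, compared with 33 of the 159 that differed the same way, and their median mean level was 10.1 FPKM against 9.40 FPKM.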

How the results depend on the processing

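The 16 genes called against CMS+saline became 8 with a pseudocount of 0.1 (6 of the 16 remained), 8 at a mean of at least 5 FPKM, 9 without the tissue block and 0 with only the 4 samples compared. The counts were 14 to 17 with median-ratio size factors, no mean-variance trend or no low-value filter. Without that filter 12 of the 16 were still called. Leaving out each sample gave 1 to 25. The 26 genes called against the control became 0 with only the 4 samples compared (452 with an unadjusted p under 0.05, limma) and 0 to 35 on leaving out each sample, and were 18 to 26 otherwise. The 159 genes at least 2-fold the same way in both tissues became 505 at 1.5-fold and 41 at 4-fold, and 106 to 227 under the other alternatives. Lower genes outnumbered higher ones at 1.5-fold, 2-fold and 4-fold with CMS+saline as reference, but not at 1.2-fold (1307 higher and 1131 lower). This count needs all 4 samples, so no sample was left out of it. Size factors, added after the data were seen, gave 82 lower and 10 higher abundant genes in hippocampus. The cause was not tested for any of these, beyond the fewer samples or genes that a setting leaves. Low genes are the least certain, to an extent that could not be measured without read counts.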
